A study of Homo sapiens with 12 samples.

Results

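Transforming growth factor beta (TGF-beta) ligands, their receptor and feedback inhibitor, and genes that respond to them were followed in myeloma cells kept with bone marrow stroma and in the same cells kept alone. The 9 genes were TGFB1, TGFB2, INHBA, TGFBR2, SMAD7, TGFBI, CCN1, CCN2 and THBS1, out of 19775 genes that the array's annotation names. All probe sets annotated to one of them alone were taken, 24 in number, of which 16 could be tested. The data came from 12 Affymetrix U133 Plus 2.0 arrays of 3 human multiple myeloma cell lines, each labelled with green fluorescent protein (GFP). INA-6 is a line whose growth depends on interleukin 6, and MM.1R is a dexamethasone-resistant derivative of the dexamethasone-sensitive MM.1S. Each line had been cultured for 24 hours together with HS-5, an unlabelled human bone marrow stromal line, or by itself, and GFP-positive cells had been separated from the stroma by sorting. The 6 groups were INA-6, MM.1R and MM.1S after coculture and the same lines alone, with 2 arrays each, technical replicates by the series' own description. HS-5 cells sorted from the same cultures were not analysed here.

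TGF-beta is secreted as a latent complex and, once freed, binds the type II receptor TGFBR2, which recruits and activates a type I receptor. The type I receptor phosphorylates SMAD2 and SMAD3, which enter the nucleus with SMAD4 and switch on target genes, among them SMAD7, an inhibitory SMAD that acts back on the receptor. Activin A, a dimer of the INHBA product, signals through its own receptors to the same SMADs. In bone marrow, stroma and bone matrix are known sources of TGF-beta, and thrombospondin 1 (THBS1) can free it from its latent form.

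The stretches of 250 bases before the gene starts of CCN2, THBS1 and TGFBI are shown because these genes are read as targets of the pathway, and CCN2 and THBS1 are also known targets of the factors YAP and TEAD. They are RefSeq sequences of build GRCh38.p14, written 5′ to 3′ along the gene, and capitals mark every match to the TEAD core GGAATG on either strand. The CCN2 stretch lies at chr6:131951373-131951622 (minus strand), that of THBS1 at chr15:39580829-39581078 (plus strand) and that of TGFBI at chr5:136028738-136028987 (plus strand).
CCN2: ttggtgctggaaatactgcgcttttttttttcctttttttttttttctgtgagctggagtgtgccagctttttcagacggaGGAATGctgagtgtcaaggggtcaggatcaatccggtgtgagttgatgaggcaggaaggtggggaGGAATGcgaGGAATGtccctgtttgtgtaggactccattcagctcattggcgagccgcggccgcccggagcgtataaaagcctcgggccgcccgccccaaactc
THBS1: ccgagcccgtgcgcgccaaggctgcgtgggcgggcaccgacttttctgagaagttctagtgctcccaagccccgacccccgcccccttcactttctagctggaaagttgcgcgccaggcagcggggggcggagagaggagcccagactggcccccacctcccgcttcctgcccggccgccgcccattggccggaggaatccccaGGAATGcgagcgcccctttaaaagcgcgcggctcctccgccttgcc
TGFBI: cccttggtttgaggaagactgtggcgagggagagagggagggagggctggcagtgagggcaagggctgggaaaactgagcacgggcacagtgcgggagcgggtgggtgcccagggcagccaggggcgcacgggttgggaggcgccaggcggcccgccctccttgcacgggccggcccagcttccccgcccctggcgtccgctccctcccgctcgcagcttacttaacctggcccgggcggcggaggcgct
The CCN2 stretch holds 3 matches, which begin 169, 104 and 95 bases before the start, THBS1 holds 1, which begins 46 bases before it, and TGFBI holds none. Of 35116 stretches of the same length in the table, 11.9% hold at least 1 match. Windows were found for 8 of the 9 genes, 11 in all, since TGFBR2 and SMAD7 have several starts, and 3 windows hold the TEAD core, those of CCN2, THBS1 and TGFB2. The SMAD palindrome GTCTAGAC, found in 0.182% of all stretches, matched 0 of the 11. The CAGA box core CAGACA, in 13.6% of all, matched 1 of them, that of TGFB2, and the AP-1 site TGANTCA, in 6.57% of all, matched 0. These are letter matches in one window, and they describe the sequence only.

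Values are intensities as the authors deposited them, linear and 1 to a probe set. Array medians lay between 19.78 and 24.09, so that a value near or under about that level stands in the lower part of its array. The upper range differed more. The 75th percentiles were 116 and 121 in INA-6 after coculture, against 73.6 and 69.9 alone. They were 129 and 127 in MM.1R after coculture, against 107 and 107 alone, and 124 and 119 in MM.1S after coculture, against 99.2 and 99.9 alone. The 10 plasma cell markers, among them SDC1, IRF4 and XBP1, all read above the array median on every array. The ACTB control's 3′ probe set over its 5′ one, a ratio that rises when transcripts are shortened, averaged 32.0 in INA-6 after coculture against 5.51 alone. In MM.1R it averaged 5.21 after coculture against 31.4 alone, and in MM.1S 5.10 against 22.4, the opposite order. Between duplicate arrays r was 0.821 for INA-6 alone and 0.929 to 0.982 in the remaining groups. The part of RNA quality in the results below was not tested.

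After coculture, TGFBI, INHBA, CCN1, THBS1 and SMAD7 each had at least 1 probe set that rose in the comparison common to the 3 lines. These rises ran from 2.58 (SMAD7) to 6.47 (TGFBI) on the log2 scale, while TGFB1, TGFBR2, CCN2 and TGFB2 did not pass the comparison. The brightest probe sets of CCN1 (0.56, limma adjusted p = 0.662) and THBS1 (-0.29, adjusted p = 0.688) did not pass either. On the brightest tested probe set of each gene, 3 of the 9 genes passed. This comparison averaged the duplicates on the scale log2(intensity + 5), took the line as a block and used limma over 35664 probe sets with Benjamini-Hochberg adjustment and a threshold of 0.05. Its p-values count the 3 lines as independent replicates, although MM.1R derives from MM.1S. Of the 16 tested probe sets of the 9 genes, 6 were called higher and 0 lower, and 10 did not pass, where 1.13% of all tested probe sets were called (1.11% higher and 0.0168% lower). A probe set was tested if it stood above its array's median on at least 2 of the 12 arrays. Of the 16, 4 stood above the median on no array of cells alone. They were 201506_at of TGFBI, 209101_at of CCN2, 210511_s_at of INHBA and 201110_s_at of THBS1. For 201289_at of CCN1 the only such array was replicate 1 of INA-6 alone (41.4, array median 21.49), fewer than the 2 needed. All of these could enter the test only by reading high after coculture. Those of TGFBI, INHBA, THBS1 and CCN1 are among the 6 called. The 8 probe sets left out belong to TGFB2 (3, reading 1.43 to 67.4), TGFBR2 (1, reading 1 to 10.1) and THBS1 (4, reading 1 to 23.03). In a sorted population, more cells with a transcript and more transcript per cell cannot be told apart.

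TGFBI and the INHBA probe set 210511_s_at passed under every alternative that tested them, with adjusted p up to 0.0253 and 0.0369 in limma. With 1 probe set a gene, 210511_s_at was not tested. Both had met the filter only through arrays after coculture. The alternative with no filter on low values, which gave these highest adjusted p, was the only one to go without this selection. CCN1, THBS1, SMAD7 and the INHBA probe set 227140_at went past 0.05 with a pseudocount of 16 (0.0501, 0.0743, 0.0646 and 0.0501), with quantile normalization, with no filter on low values and without replicate 2 of INA-6 alone. Without replicate 1 of INA-6 alone, SMAD7 stood at 0.0690. Without MM.1R, SMAD7 stood at 0.0829 and the INHBA probe set 227140_at at 0.0773.

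Within single lines, tested by limma over all 12 arrays, 7 of the 16 probe sets rose in INA-6, 9 in MM.1R and 9 in MM.1S, and 0 fell in any of the lines. The 4 probe sets above the median on no array of cells alone, and 201289_at of CCN1, are all among those that rose in MM.1R and MM.1S. In INA-6 all of them but that of CCN2 are. Over all tested probe sets 47.7% were called in INA-6 (35.2% higher and 12.5% lower), 14.0% in MM.1R (10.5% and 3.48%) and 29.3% in MM.1S (20.4% and 8.98%). The calls of all probe sets were 73.7%, 75.1% and 69.4% higher in these lines, and 60.8%, 57.2% and 57.6% after quantile normalization. These p-values rest on the spread within pairs of technical duplicates, so they compare 1 sample with 1 other in each line and leave out the spread between cultures.

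**Figure D1:**
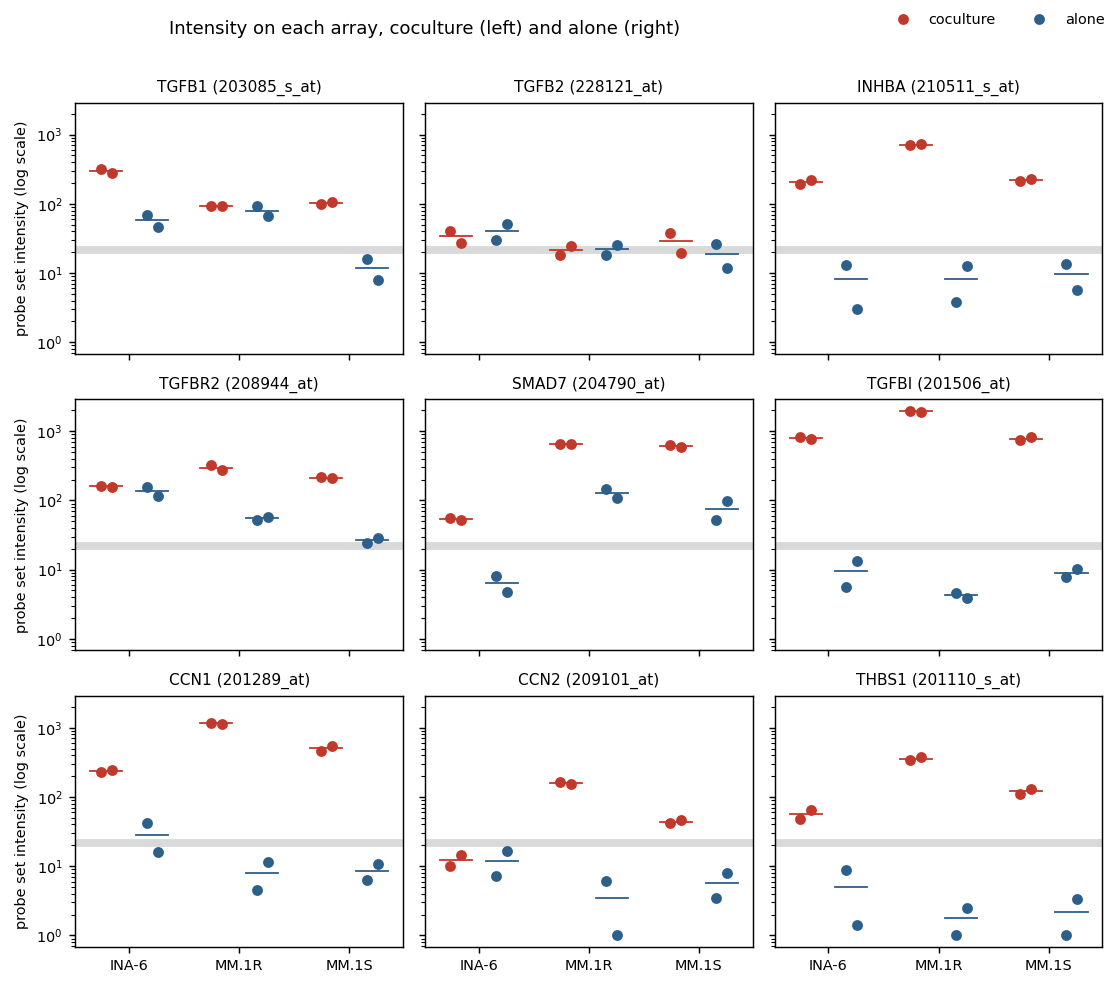
Intensity (log scale) of 1 probe set of each gene on each array, with coculture in red to the left and cells alone in blue to the right for each line; short lines are the means of 2 arrays and the grey band is the range of the array medians, 19.78 to 24.09. The probe set with the largest common change is drawn for each gene. TGFBI, INHBA, CCN1 and THBS1 stand under the band on the arrays of cells alone, except 1 array of INA-6 for CCN1, and above it after coculture.

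Of the ligands, TGFB1, which encodes the most widely expressed TGF-beta isoform, was read by 2 probe sets. The probe set 203085_s_at had intensities of 318 and 281 in INA-6 after coculture, against 69.3 and 45.7 alone. It read 94.2 and 92.7 in MM.1R after coculture, against 92.1 and 65.7 alone, and 98.8 and 105 in MM.1S after coculture, against 16.04 and 7.95 alone. The coculture arrays were above those alone in each line, but in MM.1R by little. The change was 2.31 ± 0.30 (log2, SE, 2 arrays against 2; limma adjusted p = 4.07e-04) in INA-6, 0.25 ± 0.30 (adjusted p = 0.706) in MM.1R and 2.70 ± 0.30 (adjusted p = 3.54e-04) in MM.1S. In the common comparison it was 1.75 ± 0.55 (n = 6 averaged values; limma adjusted p = 0.172). The other probe set, 203084_at, read between 11.0 and 47.9 on all arrays and passed in none of the lines, with a common change of -0.40 ± 0.38 (limma adjusted p = 0.577), so the 2 probe sets of TGFB1 disagree.

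TGFB2, which encodes a second isoform of the ligand, had 5 probe sets, of which 2 could be tested, with low or scattered values. The probe set 228121_at read 40.4 and 27.4 in INA-6 after coculture, against 30.1 and 51.5 alone, 18.3 and 24.3 in MM.1R after coculture, against 18.5 and 25.6 alone, and 38.3 and 19.4 in MM.1S after coculture, against 26.3 and 11.8 alone. The groups overlapped in all 3 lines, and the common change was 0.08 ± 0.39 (limma adjusted p = 0.92). The second tested probe set, 220406_at, read from 2.46 to 105 with duplicates as far apart as 6.47 and 105 in MM.1S alone, and stood at -0.91 ± 0.47 in the common comparison (adjusted p = 0.336). In MM.1S on this probe set TGFB2 read 2.46 and 5.97 after coculture, below both arrays alone, with a change of -1.97 ± 1.13 (limma adjusted p = 0.239). It stood at -3.61 there (adjusted p = 0.0479) without replicate 1 of MM.1S alone. In INA-6 and MM.1R the arrays overlapped on it.

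INHBA, whose product forms activin A, read low in cells alone and high after coculture on 2 of its 3 probe sets. With 210511_s_at the intensities were 193 and 223 in INA-6 after coculture, against 13.2 and 3.02 alone. They were 713 and 722 in MM.1R after coculture, against 3.81 and 12.5 alone, and 212 and 229.8 in MM.1S after coculture, against 13.6 and 5.62 alone. Coculture and alone did not overlap in any line, and MM.1R was the highest after coculture. The rise was 4.14 ± 0.46 in INA-6 (limma adjusted p = 1.93e-04), 5.86 ± 0.46 in MM.1R (adjusted p = 1.41e-04) and 4.01 ± 0.46 in MM.1S (adjusted p = 4.30e-04). The common rise was 4.67 ± 0.49 (log2, SE, n = 6 averaged values; limma adjusted p = 0.0138), with a range of 3.81 to 5.25 over the alternatives. The probe set 227140_at gave a smaller common rise, 3.13 ± 0.43 (adjusted p = 0.0328), and passed in each line. The probe set 204926_at read from 20.9 to 78.8 on all arrays and stood at 0.31 ± 0.40 (adjusted p = 0.676).

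The type II receptor TGFBR2 was read by 208944_at at 163 and 158 in INA-6 after coculture, against 158 and 115 alone. Its intensities were 322 and 272 in MM.1R after coculture, against 52.0 and 58.4 alone, and 218 and 209 in MM.1S after coculture, against 24.6 and 28.9 alone. In INA-6 the receptor already stood at this level in cells alone and the arrays overlapped, while in MM.1R and MM.1S each coculture array was above both arrays alone. The change was 0.24 ± 0.21 in INA-6 (limma adjusted p = 0.375), 2.33 ± 0.21 in MM.1R (adjusted p = 3.00e-04) and 2.79 ± 0.21 in MM.1S (adjusted p = 7.88e-05). The INA-6 value turned to -0.555 with adjusted p = 0.0399 after quantile normalization, and to 0.46 with adjusted p = 0.0419 without replicate 1 of INA-6 alone. Over its 21 alternatives adjusted p ran from 0.0399 to 0.929. The change common to the lines was 1.78 ± 0.56 (limma adjusted p = 0.172).

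SMAD7, the feedback inhibitor of the receptor, had 1 probe set, 204790_at, which read 55.9 and 52.3 in INA-6 after coculture, against 8.12 and 4.79 alone. It read 655 and 660.5 in MM.1R after coculture, against 144 and 109.8 alone, and 626 and 587 in MM.1S after coculture, against 51.7 and 97.5 alone. The gene was higher after coculture on every array of each line, and INA-6 was the lowest line in both conditions, without overlap. INA-6 after coculture read within or beside the range of MM.1S alone. The rise was 2.38 ± 0.30 in INA-6 (limma adjusted p = 3.58e-04), 2.34 ± 0.30 in MM.1R (adjusted p = 0.00164) and 3.003 ± 0.30 in MM.1S (adjusted p = 2.30e-04), and it was 2.58 ± 0.39 in common (adjusted p = 0.0406). A difference between the lines did not pass the F-test (adjusted p = 0.401), and the change in INA-6 minus the mean of those in MM.1R and MM.1S was -0.29 ± 0.36 (log2, SE).

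Among the targets, TGFBI, which encodes a secreted matrix protein named for its induction by TGF-beta, changed by the most of the 9 genes in each line. Its probe set 201506_at read 836 and 774 in INA-6 after coculture, against 5.55 and 13.3 alone. It read 1969 and 1913 in MM.1R after coculture, against 4.64 and 3.88 alone, and 752 and 813 in MM.1S after coculture, against 7.75 and 10.1 alone. In cells alone it stood below the array medians on all 6 arrays, and after coculture above them on all 6. The rise was 5.86 ± 0.26 in INA-6 (limma adjusted p = 6.83e-06), 7.72 ± 0.26 in MM.1R (adjusted p = 2.24e-06) and 5.83 ± 0.26 in MM.1S (adjusted p = 1.52e-05). The common rise of 6.47 ± 0.50 (adjusted p = 0.00864) ran from 5.54 to 7.07 (log2) over the alternatives.

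CCN1 encodes a matricellular protein that binds integrins, and its 2 probe sets differ. With 201289_at the intensities were 233 and 247 in INA-6 after coculture, against 41.4 and 15.8 alone. In the other lines they were 1185 and 1124 in MM.1R after coculture, against 4.50 and 11.6 alone, and 462 and 541 in MM.1S after coculture, against 6.38 and 10.7 alone. Coculture was above alone in every line, by the least in INA-6, where cells alone read highest. The rise was 2.98 ± 0.40 in INA-6 (limma adjusted p = 5.34e-04), 6.53 ± 0.40 in MM.1R (adjusted p = 4.01e-05), 5.24 ± 0.40 in MM.1S (adjusted p = 8.61e-05) and 4.92 ± 0.67 in common (adjusted p = 0.0325). With 210764_s_at the values were 111 and 112 in INA-6 after coculture, against 136 and 626 alone, so that the duplicates alone differ widely. On this probe set CCN1 rose in MM.1R (2.21 ± 0.56, adjusted p = 0.0335), a call that 10 of its 22 alternatives ended, among them leaving out any of the 4 MM.1R arrays (adjusted p up to 0.160). It stood at -1.35 ± 0.56 in INA-6 (limma adjusted p = 0.0781), and at -2.44 (adjusted p = 1.14e-05) without replicate 1 of INA-6 alone. In MM.1S it stood at 0.81 ± 0.56 (adjusted p = 0.334), and passed with adjusted p = 0.00118 once an array of INA-6 alone was left out of the fit.

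CCN2, also called connective tissue growth factor, a matricellular protein of fibrosis, had the probe set 209101_at with intensities of 10.2 and 14.5 in INA-6 after coculture, against 7.27 and 16.7 alone. They were 164 and 156 in MM.1R after coculture, against 6.02 and 1 alone, and 42.0 and 46.3 in MM.1S after coculture, against 3.42 and 8.02 alone. INA-6 stayed below the array medians in both conditions with overlapping arrays, MM.1R was well above them after coculture, and MM.1S lay between. CCN2 stood at 0.07 ± 0.38 in INA-6 (limma adjusted p = 0.888), and rose by 4.34 ± 0.38 in MM.1R (adjusted p = 2.58e-04) and 2.23 ± 0.38 in MM.1S (adjusted p = 0.00301). In common it stood at 2.21 ± 0.76 (adjusted p = 0.196).

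THBS1, the activator of latent TGF-beta named above and itself a known target, was read by 7 probe sets, of which 3 could be tested and 1 rose. The one that rose, 201110_s_at, read 48.6 and 64.7 in INA-6 after coculture, against 8.69 and 1.39 alone. Its intensities were 337 and 374 in MM.1R after coculture, against 1 and 2.52 alone, and 111 and 131 in MM.1S after coculture, against 1 and 3.30 alone. Cells alone read under 10 on every array, and each coculture array was above them. The rise was 2.71 ± 0.36 in INA-6 (limma adjusted p = 5.02e-04), 5.74 ± 0.36 in MM.1R (adjusted p = 4.40e-05), 4.15 ± 0.36 in MM.1S (adjusted p = 1.35e-04) and 4.20 ± 0.60 in common (adjusted p = 0.0357), with a common range of 3.03 to 5.33 over the alternatives. The probe set 215775_at, the brightest of the gene on average, read from 68.3 to 218 on all arrays and stood at -0.29 ± 0.38 (adjusted p = 0.688). The third, 201108_s_at, read from 8.37 to 42.0 and stood at -0.36 ± 0.42 (adjusted p = 0.651).

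**Figure D2:**
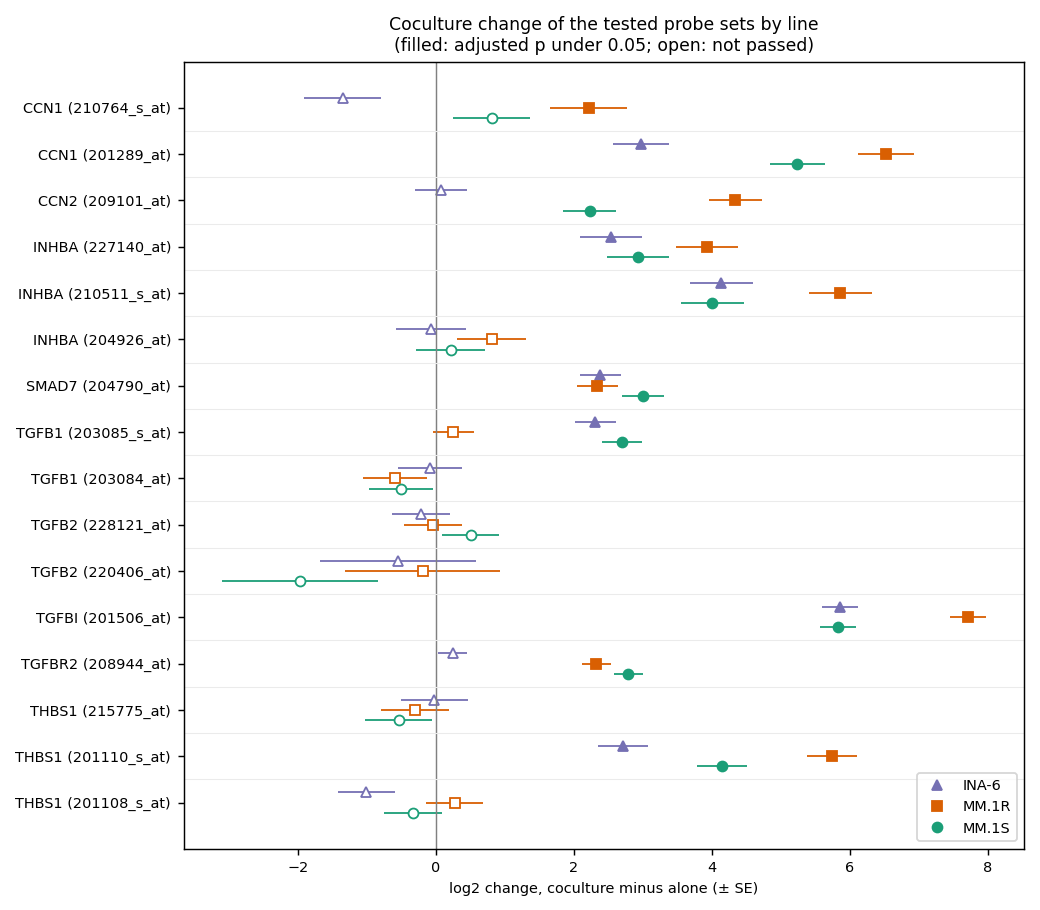
Change after coculture (log2, coculture minus alone, ± SE of the 12-array fit) of the 16 tested probe sets in INA-6, MM.1R and MM.1S; filled symbols passed an adjusted p of 0.05. TGFBI, SMAD7, 2 probe sets of INHBA, and 1 each of CCN1 and THBS1 are filled in all 3 lines, whereas CCN2 and TGFBR2 are open in INA-6 and TGFB1 is open in MM.1R.

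Differences between the lines in the size of the coculture effect were set against the spread of technical duplicates, with 1 sample per line and condition, so the F-test compares these samples and leaves out the spread between cultures. On that footing the effect differed for TGFB1, TGFBR2, TGFBI, CCN1, CCN2 and THBS1. The limma F-test over the lines passed for 7 of the 16 probe sets, where 32.8% of all tested probe sets passed. For the 9 lead probe sets, the brightest tested one of each gene, 5 passed. With the fit run on 1 probe set a gene, 5379 of all 15052 lead probe sets passed. These counts are not read as a trait of the 9 genes. CCN2 (adjusted p = 0.00191) changed by -3.21 ± 0.47 in INA-6 minus the mean of MM.1R and MM.1S (log2, SE; adjusted p of this contrast = 0.00122, which 36.9% of all probe sets passed), and TGFBR2 (F-test adjusted p = 9.71e-04) by -2.31 ± 0.26 (adjusted p = 3.29e-04). The same contrast gave -2.91 ± 0.49 for CCN1 on 201289_at (limma adjusted p = 0.00249) and -2.24 ± 0.44 for THBS1 on 201110_s_at (adjusted p = 0.00522), both probe sets taken up after their values were seen. These 4 changes were smaller in INA-6 than in the other lines. The THBS1 F-test, with adjusted p = 0.00714, stood at 0.0518 with a pseudocount of 1, and that of CCN1 had adjusted p = 0.00537. The lead probe set of CCN1, 210764_s_at, passed with adjusted p = 0.0233 and went up to 0.0777 without single arrays of MM.1R or of INA-6 after coculture. These differences run in the same lines as the reversed order of the ACTB ratio, whose part was not tested.

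TGFB1 differed in another way. Its F-test passed (limma adjusted p = 0.0055), and the rise in MM.1R minus that in MM.1S was -2.45 ± 0.42 (log2, SE; adjusted p = 0.0547). In cells alone MM.1R read 92.1 and 65.7 and MM.1S 16.04 and 7.95, while after coculture MM.1R read 94.2 and 92.7 and MM.1S 98.8 and 105. TGFBI passed the F-test too (adjusted p = 0.00778), with a difference of 1.89 ± 0.37 for MM.1R minus MM.1S (adjusted p = 0.0672) and -0.91 ± 0.32 for INA-6 minus the others (adjusted p = 0.0571), neither of which passed alone. No contrast of MM.1R minus MM.1S passed for any of the 16 probe sets, where 0.398% of all passed. INHBA did not pass the F-test on 210511_s_at (adjusted p = 0.091) or 227140_at (adjusted p = 0.244), though 210511_s_at passed in 3 of 20 alternatives.

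Some markers of stromal cells were higher in the same groups. Of 23 such markers, 20 could be tested on their lead probe set, and 7 rose, 0 fell and 13 did not pass in the common comparison, where 1.49% of all lead probe sets were called (1.48% higher and 0.00664% lower). Those that rose were the collagen chains COL6A1, COL6A2, COL6A3 and COL1A2, fibronectin FN1, the collagen crosslinker LOX and the matrix protein SPARC. COL6A2, COL6A3 and LOX stood above the median on no array of cells alone, so they could enter the test only by reading high after coculture. Markers with 1 such array were not counted here. By single line 10 rose and 1 fell in INA-6, 13 rose and 0 fell in MM.1R, and 11 rose and 0 fell in MM.1S. Over all lead probe sets 50.8%, 14.2% and 30.5% were called in these lines. COL1A1 was the marker that fell in INA-6, at -1.76 ± 0.54 (log2, SE; limma adjusted p = 0.0274). TAGLN, ACTA2, CALD1, CDH11 and THY1 passed in none of the lines. The summed intensity of the 23 markers lay between 8448 and 19045 on the coculture arrays, against 1125 to 2861 on the arrays of cells alone, with 17 to 20 and 11 to 14 markers above the array median. None read at 1 or below, and LUM and POSTN stayed under 10 on average in every group. By line the sum averaged 8553 in INA-6, 18831 in MM.1R and 10076 in MM.1S after coculture, against 2186, 1177 and 1229 alone. HS-5 RNA in the sorted fraction was not tested as a part of any of these rises.

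The levels after coculture were set against those of the stromal markers, as a description. The marker sum in MM.1R was 1.87 times that in MM.1S, and the 7 markers that rose lay between 1.45 and 2.55 times. INHBA (210511_s_at) stood at 3.25, TGFBI at 2.48, CCN1 (201289_at) at 2.30, CCN2 at 3.62 and THBS1 (201110_s_at) at 2.94 times the MM.1S level in MM.1R. SMAD7, TGFBR2 and TGFB1 stood at 1.08, 1.39 and 0.915 times. Between INA-6 and MM.1S the marker sum had a ratio of 0.849 and the 7 markers 0.616 to 1.09. TGFBI, at 1.03, and INHBA, at 0.940, lay within that range, as did TGFBR2 at 0.752. CCN1 (0.478), THBS1 (0.469), CCN2 (0.279) and SMAD7 (0.089) lay below it, and TGFB1 (2.93) lay above. The 23 markers one by one ranged more widely, from 0.298 for POSTN to 2.85 for FBN1 between MM.1R and MM.1S, and from 0.064 for DCN to 3.90 for THY1 between INA-6 and MM.1S.

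**Figure D3:**
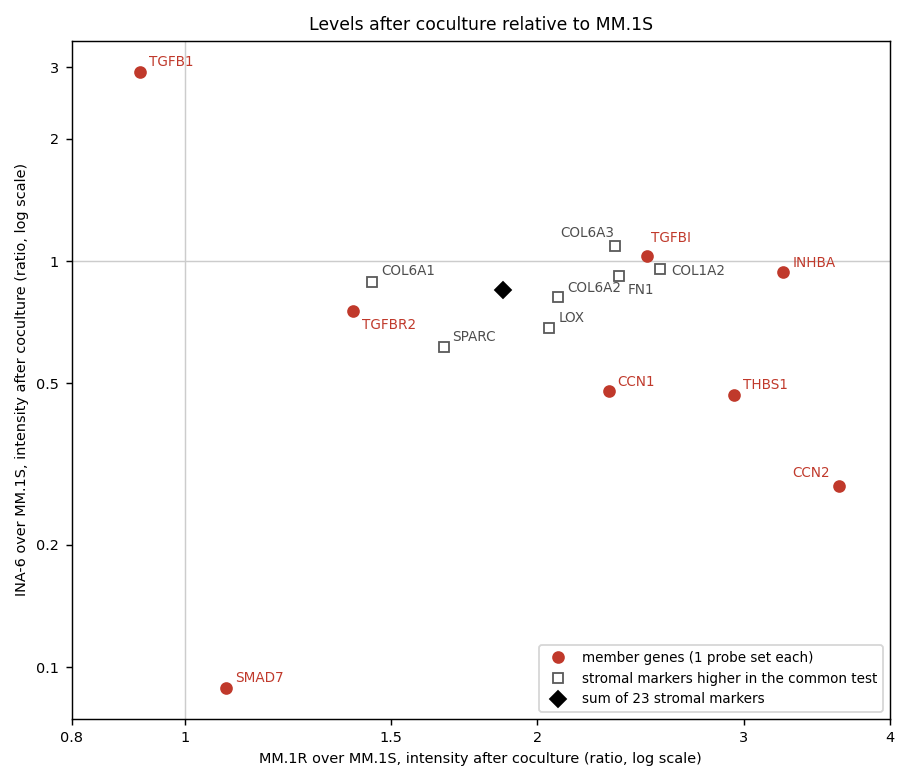
Intensity after coculture as a ratio of MM.1R over MM.1S (x axis, log scale) and of INA-6 over MM.1S (y axis, log scale), from means of 2 arrays, for 8 of the genes (red) and the 7 stromal markers that rose (open squares), with the sum of 23 markers (diamond). TGFBI lies within the range of these 7 markers on both axes, and the other genes drawn do not. The 7 were chosen because they rose in these data, and the 23 markers taken singly range more widely.

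The rest of the pathway was followed through 7 lists with 88 genes, of which 71 had a tested probe set. In the common comparison 6 of the 71 rose, 0 fell and 65 did not pass, against 1.49% of all lead probe sets called. The median common change of the 71 was 0.67 (log2), beside 0.27 over all 15052 lead probe sets. Over all tested probe sets the median was 0.19, and -0.004 after quantile normalization. Genes of the lists were read on their lead probe set alone. Of the 71, 6 stood above the median on no array of cells alone, and 3 of these are among the 6 that rose. They are TGIF1, IL11 and F3, which could enter the test only by reading high after coculture. Genes with 1 such array also needed arrays after coculture to be tested, and they were not counted.

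Among the SMADs and their regulators 1 of 16 rose, TGIF1, a corepressor of SMAD-driven transcription, by 3.36 ± 0.46 (log2, SE; limma adjusted p = 0.0321). Its mean intensity was 103 in INA-6 after coculture, against 3.27 alone, 252 in MM.1R after coculture, against 11.4 alone, and 114 in MM.1S after coculture, against 18.0 alone. PMEPA1, another negative regulator that TGF-beta induces, stood at 2.28 ± 0.41 without passing (adjusted p = 0.0636). Of 5 activin antagonists and activators of latent TGF-beta 1 rose, FST, whose product follistatin binds and neutralises activin, by 3.47 ± 0.56 (adjusted p = 0.0488). FST averaged 154 in INA-6 after coculture, against 39.1 alone, 618 in MM.1R after coculture, against 15.2 alone, and 198 in MM.1S after coculture, against 19.3 alone. The integrin chain ITGB5 stood at 1.34 ± 0.58 (adjusted p = 0.271).

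Within single lines 12 of the 16 SMADs and regulators rose and 2 fell in INA-6, beside 50.8% of all lead probe sets called (38.2% higher and 12.5% lower). In MM.1R 3 rose and 0 fell, beside 14.2% (12.0% and 2.13%), and in MM.1S 5 rose and 1 fell, beside 30.5% (22.8% and 7.69%). Named after their values were seen, SMAD5, which carries BMP signals, rose by 2.17 ± 0.17 (log2, SE; limma adjusted p = 4.15e-05) in INA-6 and stood at -0.03 ± 0.17 in MM.1R and -0.12 ± 0.17 in MM.1S, and its F-test over the lines had adjusted p = 5.52e-04. SKI, a corepressor of SMADs, rose by 2.82 ± 0.22 in INA-6 and by 0.91 ± 0.22 (adjusted p = 0.0158) in MM.1S, and stood at 0.61 ± 0.22 in MM.1R, with an F-test of adjusted p = 0.00223. Those that fell in INA-6 were ZFYVE9, an anchor that brings SMADs to the receptor, at -2.58 ± 0.56, and BAMBI, a pseudoreceptor, at -2.08 ± 0.44. BAMBI was also the gene that fell in MM.1S, at -2.45 ± 0.44 (limma adjusted p = 0.00376), and stood at 0.74 ± 0.44 in MM.1R.

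Of 16 other genes known to respond to TGF-beta 2 rose, the cytokine IL11 by 4.34 ± 0.54 (limma adjusted p = 0.0233) and the transcription factor BHLHE40 by 4.22 ± 0.40 (adjusted p = 0.0103). IL11 averaged 173 in INA-6 after coculture, against 12.3 alone, 704 in MM.1R after coculture, against 8.45 alone, and 270.3 in MM.1S after coculture, against 14.2 alone. BHLHE40, already above the array medians in cells alone, averaged 1461 in INA-6 after coculture, against 106 alone, 1961 in MM.1R after coculture, against 97.2 alone, and 1855 in MM.1S after coculture, against 68.9 alone. Of 12 YAP and TEAD genes 2 rose, the coagulation initiator F3 by 5.45 ± 0.38 (adjusted p = 0.00864) and AMOTL2, which restrains YAP, by 3.66 ± 0.43 (adjusted p = 0.0196). F3 is also a gene of stromal cells.

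In the other lists 0 genes passed the common limma test. These were 9 ligands and latency proteins, 8 receptors, and 5 thrombospondins and thrombospondin receptors. The latency protein LTBP1 stood at 2.41 ± 0.45 (adjusted p = 0.0701) and LTBP3 at 1.76 ± 0.45 (adjusted p = 0.12). The type I receptor TGFBR1 stood at 1.80 ± 0.40 (adjusted p = 0.0941) and the activin receptor ACVR2B at 1.92 ± 0.54 (adjusted p = 0.144). THBS2, a relative of THBS1, stood at 2.09 ± 0.51 (adjusted p = 0.111) and THBS4 at -0.69 ± 0.42 (adjusted p = 0.403). Over all tested probe sets 6919 had an unadjusted p under 0.05 in this comparison.

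**Figure D4:**
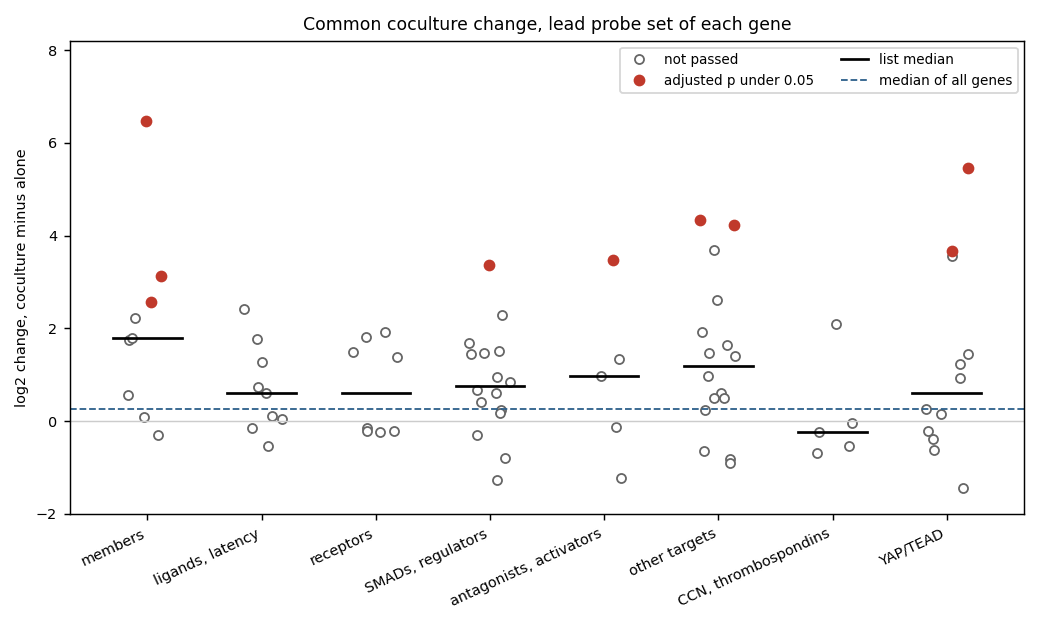
Common change after coculture (log2) of the lead probe set of each gene in the 9 followed genes and the 7 other lists; filled points passed an adjusted p of 0.05, black bars are list medians and the dashed line is the median of all lead probe sets, 0.27. For CCN1 and THBS1 the lead probe set is not the one that rose, so the points of the followed genes show 3 of the 5 genes that passed.

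The genes most like each of the 9 in their course over the 12 arrays were named by Pearson's r of log2 values between lead probe sets, as a description in which the arrays share lines and conditions. TGFBI was most like STC1 (r = 0.9983) and TNNT1 (r = 0.9962), and CCN2 most like CCL2 (r = 0.9738) and NRP1 (r = 0.9643). INHBA on its lead probe set was most like ESM1 (r = 0.9865) and HMGA2 (r = 0.9841). SMAD7 was most like SPRED2 (r = 0.9903) and C16orf54 (r = 0.9903), TGFBR2 like FTH1P5 (r = 0.9880) and ST6GAL1 (r = 0.9869), and TGFB1 like TUBA4A (r = 0.9724) and EMC8 (r = 0.9709). The lead probe set of CCN1 was most like CNRIP1 (r = 0.9760) and PAPSS2 (r = 0.9495), that of THBS1 like SPMIP1 (r = 0.9073) and TTC12 (r = 0.8976), and that of TGFB2 like LINC00642 (r = 0.9552) and SNAPC5 (r = 0.9339). On the probe sets that rose, chosen after their values were seen, CCN1 was most like TCEAL7 (r = 0.9902) and CEMIP (r = 0.9895) and THBS1 most like TCEAL7 (r = 0.9956) and CMPK2 (r = 0.9927).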

How the data were processed

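The deposited table holds 1 intensity for each of 54675 probe sets on 12 Affymetrix U133 Plus 2.0 arrays, on a linear scale. The authors made these intensity values with MAS5 per the submitters' processing notes, whereas the series text names dChip, and the files do not settle which. The labels and files used here name no version and no scaling target. Values went down to 0.43, and 1 probe set with a missing value was left out. Genes were named from the platform annotation: 41097 probe sets have 1 symbol, 1801 have several and 11776 have none, and those with several or none were named for no gene. Of the symbols, 41043 probe sets were looked up in RefSeq names, which changed 0.

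Values were taken as log2(intensity + 5). The 35664 probe sets above their array's median on at least 2 arrays, 62 control probe sets apart, were tested with limma 3.58.1 in R 4.3.3, two-sided, with Benjamini-Hochberg adjustment over all of them. The common comparison averaged duplicates and had the line as a block, with 2 residual degrees of freedom. The line comparisons and the F-test used all 12 arrays with 6. Alternatives were other pseudocounts, quantile normalization, median centring, other filters, 1 probe set a gene, a trend, a replicate block, and leaving out arrays or lines. The tests were checked on simulated data that held only the spread of the duplicates. There the common comparison recovered 0% of log2 changes of 1, 26% of 2, 78% of 4 and 96% of 6. A gene that did not pass is therefore not shown to be unchanged, and precision is limited by the number of arrays. The genes followed and all lists were chosen with earlier results of these data known. Named are every tested probe set of the 9 genes, up to 3 rises and 3 falls of a list or its 2 largest changes where fewer than 2 passed, and 2 genes most like each of the 9. Stromal markers, SMAD5, SKI, ZFYVE9 and BAMBI were named outside this rule, after their values were seen.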

Additional observations from a re-analysis of the deposited data

Results flagged for a closer look

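The coculture effect differed between INA-6, MM.1R and MM.1S by the limma F-test, adjusted over all 35664 probe sets, for 7 of the 16 probe sets of the 9 genes, where 32.8% of all tested probe sets passed. The test rests on technical duplicates, with 1 sample per line and condition, and leaves out the spread between cultures. The adjusted p was 0.000971 for TGFBR2 and 0.00191 for CCN2, both of which rose in MM.1R and MM.1S and did not pass in INA-6. It was 0.00537 for CCN1 on 201289_at and 0.00714 for THBS1 on 201110_s_at, which passed in each line with the smallest rise in INA-6. It was 0.0233 for CCN1 on 210764_s_at, where the arrays of INA-6 alone read 136 and 626. It was 0.0055 for TGFB1 on 203085_s_at, which passed in INA-6 and MM.1S, and 0.00778 for TGFBI, which passed in each line with the largest rise in MM.1R.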

How the results depend on the processing

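The common count of 6 probe sets went to 2 with a pseudocount of 16, with quantile normalization and with no filter on low values, to 3 with 1 probe set a gene, which drops the probe sets of CCN1, THBS1 and INHBA that are not the brightest, and to 10 without INA-6, when TGFB1, TGFBR2, CCN2 and 210764_s_at of CCN1 also passed; where no reason is given, the cause was not tested. Leaving out single arrays gave 2 to 6, the lowest without replicate 2 of INA-6 alone. In INA-6 the count of 7 went to 4 with 1 probe set a gene. Leaving out single arrays gave 7 to 9 in INA-6, 8 to 9 in MM.1R, 9 to 10 in MM.1S and 4 to 5 for the 5 lead probe sets that differed between lines. Replicate numbers did not pair the samples (correlations of -0.518 to 0.576, 6 of 15 over 0.1), and with a replicate block the counts were 9 in common without averaging, 8 in INA-6, 9 in MM.1R, 9 in MM.1S and 5 between lines. Signs turned in 14 results, over 24 settings of them, and none of the 14 was called at the main setting. CCN1 on 210764_s_at in common stood at -0.274 without MM.1R, TGFB2 on 228121_at in common at -0.008 and TGFBR2 in INA-6 at -0.555 with quantile normalization. The others turned without single arrays, over which 228121_at of TGFB2 ran from -0.069 to 0.233 in common. In INA-6 the ranges were -0.867 to 0.689 for 203084_at of TGFB1, -0.665 to 0.513 for 204926_at of INHBA, -0.336 to 0.486 for CCN2, -0.828 to 0.78 for 215775_at of THBS1, and -1.274 to 0.165 and -0.561 to 0.126 for 220406_at and 228121_at of TGFB2. In MM.1R they were -0.321 to 0.861 for 201108_s_at of THBS1, and -1.321 to 0.933 and -0.231 to 0.15 for 220406_at and 228121_at of TGFB2. In MM.1S they were -0.801 to 0.132 for 201108_s_at of THBS1 and -0.457 to 0.88 for 204926_at of INHBA. Of the other values of single probe sets, each counted once per alternative, 1297 kept direction and side of the threshold, 22 newly passed and 29 no longer passed. Over all probe sets the common count of 402 went to 253 with a pseudocount of 16, 182 with quantile normalization, 176 with no filter, 193 and 281 without replicate 1 or 2 of INA-6 alone, 10024 without averaging, 8938 with the replicate block as well and 8150 without INA-6. The count of 10465 in MM.1S went to 16523, and that of 4978 in MM.1R to 11001, without an array of INA-6 alone. Leaving out all INA-6 arrays, chosen after seeing the data, gave 15662 and 9947. With 1 probe set a gene, when 15052 probe sets were tested, the counts were 7860 in INA-6, 2417 in MM.1R, 4858 in MM.1S and 5379 between lines. The common count was 510 there, above the 402 of the main setting. Probe sets near the array medians, such as those of TGFB2, are limited by their signal.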

Other observations

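Of the 71 genes in the 7 lists, 37 rose and 8 fell in INA-6, 25 rose and 1 fell in MM.1R, and 26 rose and 4 fell in MM.1S. Of all lead probe sets 38.2% rose and 12.5% fell in INA-6, 12.0% and 2.13% in MM.1R, and 22.8% and 7.69% in MM.1S. The median change of the 71 was 0.93 (log2) in INA-6, 0.61 in MM.1R and 0.57 in MM.1S, beside 0.47, 0.09 and 0.11 over all lead probe sets. The GAPDH ratio of 3′ to 5′ signal averaged 4.96 in INA-6 after coculture against 2.88 alone, 1.71 in MM.1R against 6.51, and 1.89 in MM.1S against 5.99. Of the 10 plasma cell markers, 0 passed in common. In INA-6 3 rose and 4 fell, in MM.1R 3 rose and 0 fell, and in MM.1S 8 rose and 0 fell, beside 50.8%, 14.2% and 30.5% of all lead probe sets called.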
